A study of Mus musculus with 33 samples.

Results

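Vsig4, Cdh5, Slc1a2, Paqr9, Icos, Pcolce2, Kcna2, Adcy4, Sdc2 and Rcan1 are genes outside the lectins that mark Kupffer cells (KCs), the resident macrophages of the liver. These 10 genes, of 24421 in the count files, were picked from their high level in control KCs, so that level and its difference from control alveolar macrophages (AMs) of the lung are given below as a description, without a test. The control KCs also stand in the comparison of Zeb2-deleted KCs with controls, so a fall there uses samples that helped to choose the genes. The fold change between both Zeb2-deleted KC populations compares no control sample. Its filter on low counts, scaling and estimate of spread did draw on the control KCs, which were in the same fit.

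The 33 samples were RNA-seq libraries, each from 25000 cells sorted by FACS, of male and female C57BL/6 mice aged 6 to 8 weeks. All mice carried floxed Zeb2 alleles. Control KCs and control AMs came from Zeb2fl/fl mice without Cre, with 6 and 5 samples. From Clec4f-crexZeb2fl/fl mice, Tim4+ KCs and Tim4- KCs were sorted apart, with 6 samples each. From Itgax-crexZeb2fl/fl mice, CD11b- AMs and CD11b+ AMs were sorted apart, with 5 samples each. Clec4f-cre drives deletion in KCs and in a minor B cell population, and Itgax-cre does so in AMs and in other CD11c-expressing cells. Cre-positive mice still hold cells that kept 1 functional Zeb2 allele, and the floxed allele leaves a truncated mRNA with its 3′ end, so Zeb2 reads understate the deletion.

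KCs line the liver sinusoids, where they clear microbes, complement-coated particles and old red cells from portal blood. Their identity is set by signals from neighbouring endothelial cells, hepatocytes and stellate cells and by factors that include the nuclear receptor LXRα. ZEB2 is a zinc finger protein that binds DNA at CACCT and related E-box sequences and is best known as a repressor in epithelial to mesenchymal transition.

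The window of 250 bases before the start site was read in RefSeq (GRCm38.p6) for 6 of the 10 genes, with 7 start sites in all. Cdh5, Paqr9, Icos and Sdc2 had no entry. The 3 windows printed belong to the gene with the highest level (Vsig4), a gene that fell in steps in KCs (Pcolce2), and the gene that was kept in KCs and gained in AMs (Adcy4). They lie at chrX:96293439-96293688 (minus strand), chr9:95637378-95637627 (plus strand) and chr14:55784073-55784322 (minus strand). Capitals mark CACCT on either strand, which reads AGGTG on the opposite one.
Vsig4: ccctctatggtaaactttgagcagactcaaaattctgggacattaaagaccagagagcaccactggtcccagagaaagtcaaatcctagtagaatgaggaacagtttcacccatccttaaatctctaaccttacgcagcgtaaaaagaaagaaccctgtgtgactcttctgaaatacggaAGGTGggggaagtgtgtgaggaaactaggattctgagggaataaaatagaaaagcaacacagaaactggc
Pcolce2: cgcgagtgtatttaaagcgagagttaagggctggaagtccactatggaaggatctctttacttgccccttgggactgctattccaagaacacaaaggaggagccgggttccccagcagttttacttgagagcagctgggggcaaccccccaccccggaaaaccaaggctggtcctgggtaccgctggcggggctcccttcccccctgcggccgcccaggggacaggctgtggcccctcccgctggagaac
Adcy4: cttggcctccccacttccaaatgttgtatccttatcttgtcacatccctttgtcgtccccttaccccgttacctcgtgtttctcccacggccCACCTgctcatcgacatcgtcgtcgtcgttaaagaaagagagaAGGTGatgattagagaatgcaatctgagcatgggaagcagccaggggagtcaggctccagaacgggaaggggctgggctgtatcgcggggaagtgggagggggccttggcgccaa
CACCT was found in 5 of the 7 windows, against 45.97% of the 32851 windows in the table. The longer CACCTG, which contains CACCT, was found in 2 windows, those of Kcna2 and Adcy4, against 17.22% of all windows. Such a match describes the letters of the window and is not a binding site. The windows of Vsig4 and Slc1a2 held 1 CACCT each, those of Kcna2 and Adcy4 held 2 each, that of Pcolce2 held 0, and those of Rcan1 held 0 and 2.

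Depth was 9837240 to 24332306 counted reads per sample, with the lowest total in Tim4- replicate 1. Zeb2 had a mean of 282 CPM (reads scaled to library size) in control KCs, 174 in Tim4+ and 169 in Tim4- KCs, and of 195, 105 and 62.5 CPM in control, CD11b- and CD11b+ AMs. The sort marker Timd4 had 708, 381 and 2.80 CPM in the KC groups, and Itgam (CD11b) had 1.92, 17.8 and 265 CPM in the AM groups, in the order the sorts imply. Clec4f, whose promoter drives Cre, was at 10890 CPM in control KCs and under 0.5 CPM in every control AM sample. The 12 liver endothelial markers summed to between 738 and 2307 CPM in control KCs, 1360 and 3874 in Tim4+ KCs, and 449 and 639.5 in Tim4- KCs. Of these markers 11 were lower in Tim4- than in control KCs, and none was called in Tim4+ KCs. Monocyte markers summed to 83.8 to 309 CPM in control, 112 to 370 in Tim4+ and 359.5 to 867 in Tim4- KCs. Of 5 tested, Ccr2 and Cx3cr1 were called higher in both Zeb2-deleted populations against controls, and none lower. Of all genes 1.94% were called higher in Tim4+ and 3.43% in Tim4- KCs. Against Tim4+ KCs, Ccr2 and Plac8 were called higher in Tim4- KCs, beside 0.44% of all genes. Vcan was at 0 in both Zeb2-deleted populations. The part of the monocyte markers in the KC results was not tested.

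In control KCs the 10 genes spanned a wide range of abundance. Per kilobase of exon (RPKM, which allows genes to be compared), Vsig4 was at 2062 ± 133 (SD, n = 6), followed by Rcan1 at 119 ± 25.8 and Adcy4 at 73.1 ± 7.23. Cdh5 with 56.8 ± 6.07 and Pcolce2 with 50.1 ± 5.02 came next. Paqr9 had 31.5 ± 3.13 RPKM, Icos 22.5 ± 3.59, Sdc2 15.6 ± 3.93, Kcna2 8.27 ± 1.47 and Slc1a2 4.95 ± 0.829. Neighbours in this order overlapped between samples for Rcan1 and Adcy4, Cdh5 and Pcolce2, Paqr9 and Icos, Icos and Sdc2, and Kcna2 and Slc1a2, and the other neighbours did not overlap. In control AMs, Paqr9 and Sdc2 had 0 counts in all 5 samples, which allows up to 0.154 CPM per library at the lowest depth of that group. Kcna2 had at most 1 count there. Vsig4 had 0 to 5 counts, and Cdh5, Slc1a2, Icos and Pcolce2 had at most 13. Adcy4 (mean 7.03 CPM) and Rcan1 (61.4 CPM) were detected in all control AM samples well above this floor, against means of 341.5 and 367 CPM in control KCs.

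**Figure D1:**
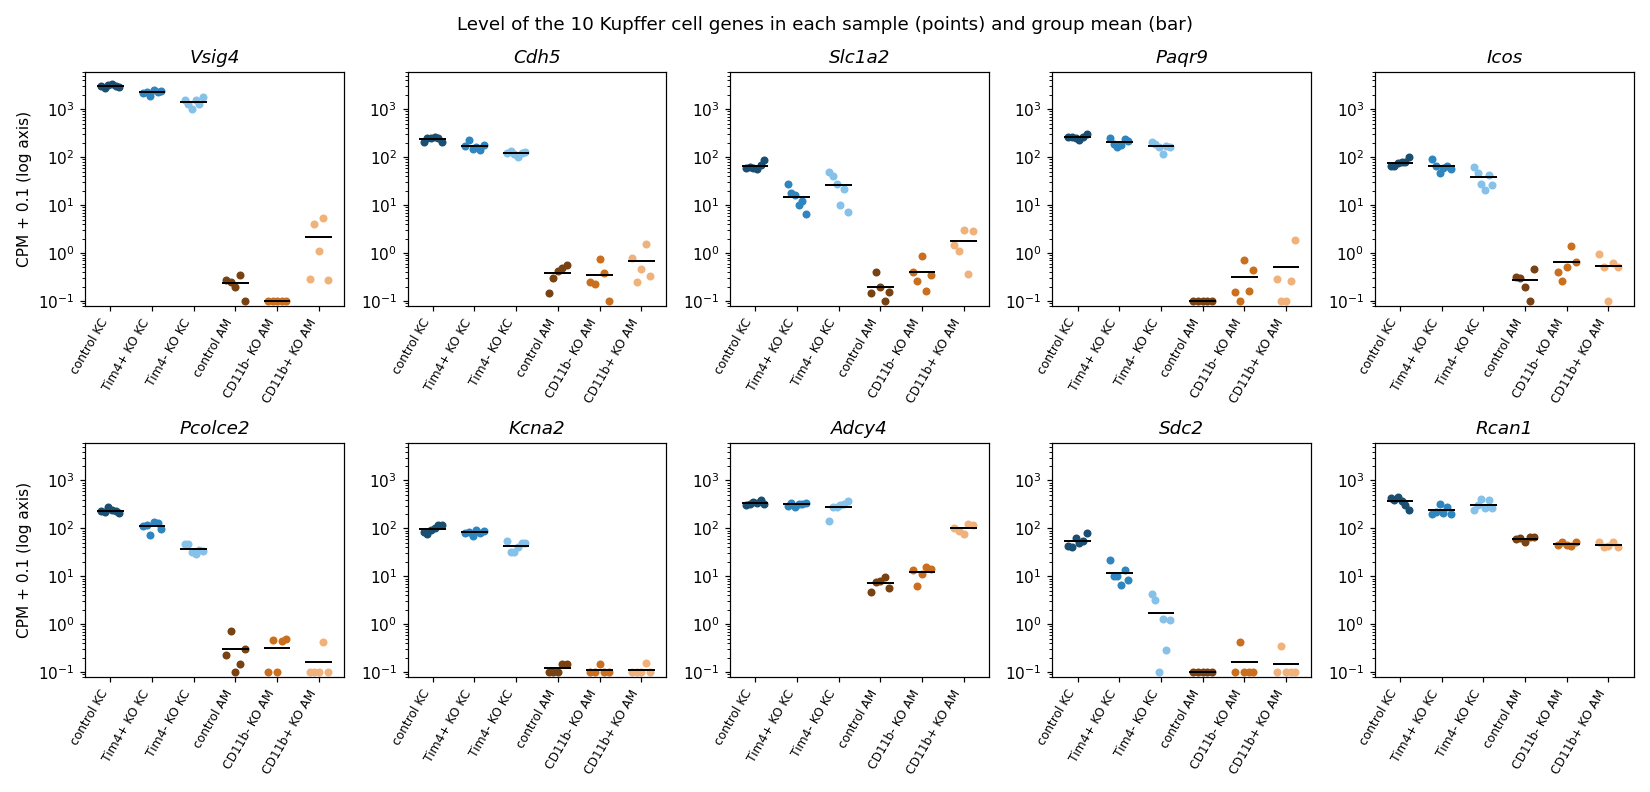
Each panel plots 1 gene in 33 samples, as CPM + 0.1 on a log axis, with points for samples and a bar for the group mean. All 10 genes were highest in a KC group, Sdc2 fell stepwise from control to Tim4+ to Tim4- KCs, and Adcy4 was the gene that came closest to KC levels in CD11b+ AMs.

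In Zeb2-deleted KCs all 10 genes had a log2 fold change below 0 against control KCs, by amounts that ranged from slight (Adcy4) to near complete loss (Sdc2 in Tim4- KCs). Genes were called with a Benjamini-Hochberg adjusted p under 0.05 in edgeR's quasi-likelihood test and an absolute log2 fold change above 1. In Tim4+ KCs 3 of the 10 were called lower (Slc1a2, Pcolce2 and Sdc2), beside 0.376% of 12500 genes called lower and 2.31% called in either direction. In Tim4- KCs 6 of the 10 were called lower (Vsig4, Slc1a2, Icos, Pcolce2, Kcna2 and Sdc2), beside 5.39% lower and 8.82% in either direction. None was called higher in either population, against 1.94% and 3.43% of all genes. On the adjusted p alone, without the fold limit, 6 and 8 of the 10 passed, beside 6.09% and 25.4% of all genes. The median log2 fold change of the 10 was -0.47 in Tim4+ and -1.09 in Tim4- KCs, beside -0.00311 and -0.0309 over all genes tested. Between Tim4- and Tim4+ KCs, Pcolce2 and Sdc2 were called lower, beside 5.01% of all genes lower, 0.44% higher and 5.45% in either direction (11.5% on the adjusted p alone), with a median over the 10 of -0.58 beside 0.00844. Both Zeb2-deleted populations were set against the same controls. In bulk RNA, fewer cells of a type and less RNA per cell cannot be told apart.

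**Figure D2:**
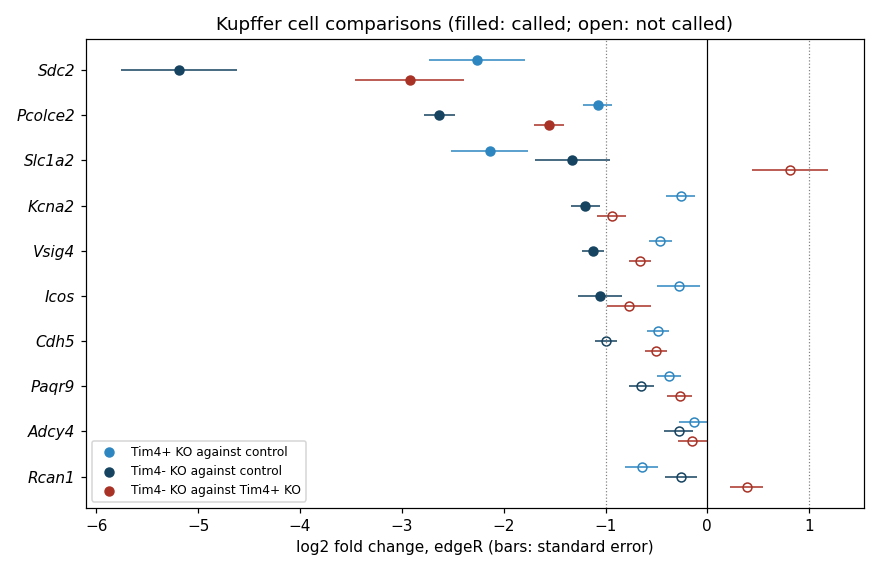
Log2 fold changes in the 3 KC comparisons, with bars for the standard error and filled points for called genes, ordered by the Tim4- against control value. Sdc2 moved furthest at -5.19, and Adcy4 and Rcan1 lay closest to 0 in Tim4- KCs.

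Among the surface receptors, Vsig4 (chrX:96247203-96293438, minus strand) encodes CRIg, a receptor for complement C3 fragments that captures opsonised bacteria from blood. It had 2806, 3079 and 3293 CPM (lowest, median, highest) in control KCs, 1868, 2254 and 2555 in Tim4+ KCs, and 993, 1432 and 1807 in Tim4- KCs. No pair of these groups overlapped. Tim4- KCs kept 46.4% of the control mean, with a log2 fold change of -1.12 ± 0.11 (SE, edgeR adjusted p = 2.50e-07). Tim4+ KCs kept 73.6%, at -0.46 ± 0.11 (edgeR adjusted p = 0.0121), which did not reach the fold required for a call. Vsig4 remained the most abundant of the 10 in Tim4- KCs, at 957 ± 191 RPKM. Other receptors and regulators of C3 moved both ways in Tim4- KCs. The complement regulator Cd55 (-1.77) fell on the log2 scale, and C3 itself (1.05) and the complement receptor subunits Itgam (1.29) and Itgax (3.39) rose. In Tim4+ KCs C3 (1.34), Itgam (1.09) and Itgax (2.47) were called higher and none lower.

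Icos (chr1:60977927-61000320, plus strand) is a co-stimulatory receptor best known on activated T cells. Its CPM were 65.5, 75.7 and 99.02 in control, 47.3, 62.8 and 90.8 in Tim4+ and 20.7, 35.1 and 61.6 in Tim4- KCs. Every Tim4- sample was below every control, while Tim4+ samples overlapped both other groups. The log2 fold change was -1.05 ± 0.22 in Tim4- KCs (edgeR adjusted p = 0.00110) and -0.28 ± 0.21 in Tim4+ KCs (edgeR adjusted p = 0.567). The Tim4- value lay at the fold limit, and leaving out control replicate 6 or Tim4- replicate 3, 4 or 6 moved it to between -0.93 and -0.97, under that limit. The 10 T cell markers summed to 5.66 to 8.40 CPM in control, 7.198 to 20.3 in Tim4+ and 2.18 to 38.5 in Tim4- KCs, and the T cell receptor component Cd3e had a mean of 1.07 CPM in control KCs, against 77.1 for Icos. Of 7 tested co-stimulatory relatives, 1 was higher in Tim4- KCs, the ligand Icosl (1.19 ± 0.24, edgeR adjusted p = 0.000998), and none was called in Tim4+ KCs.

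Cdh5 (chr8:104101625-104144511, plus strand) encodes VE-cadherin, the adhesion molecule of endothelial junctions. It had 204, 253 and 260 CPM in control, 144, 168 and 231 in Tim4+ and 100.4, 123 and 135 in Tim4- KCs. Tim4- samples were below all samples of both other groups, and Tim4+ samples overlapped the controls. The log2 fold change of -0.99 ± 0.11 in Tim4- KCs passed the p threshold (edgeR adjusted p = 8.74e-07) but lay just short of the fold required, and leaving out any 1 of 5 libraries (control replicate 1 or 6, Tim4- replicate 2, 5 or 6) took it past that limit, as far as -1.04. In Tim4+ KCs it was -0.49 ± 0.11 (edgeR adjusted p = 0.00637). The endothelial marker sum had a median of 1487 CPM in control, 1724 in Tim4+ and 530 in Tim4- KCs, lower with Cdh5 in Tim4- KCs but not in Tim4+ KCs. Its part in the Cdh5 values was not tested. Of 8 tested cadherin and catenin genes, Cdh1 (E-cadherin) was higher in both populations (2.51 in Tim4+, 2.66 in Tim4-), and Cdh2 (-4.27) and the endothelial phosphatase Ptprb (-1.94) were lower in Tim4- KCs.

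**Figure D3:**
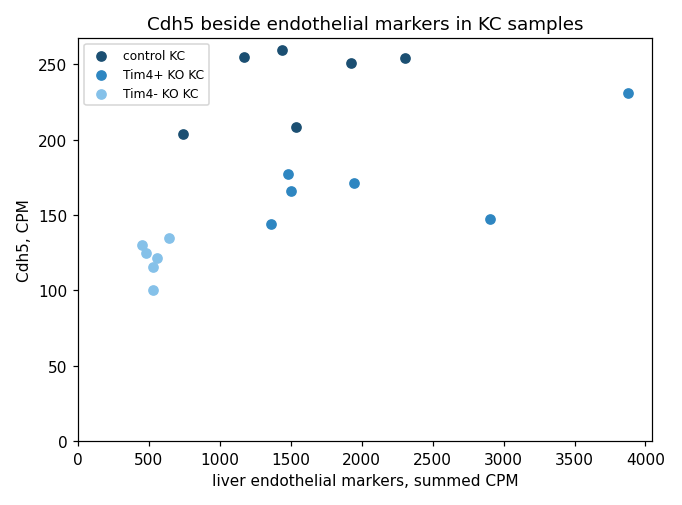
Cdh5 CPM (vertical) against the summed CPM of 12 liver endothelial markers (horizontal) in the 18 KC samples. The 6 Tim4- samples sit lowest on both axes, and 5 of 6 Tim4+ samples lie below every control in Cdh5 at marker sums of 1360 CPM or more.

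Sdc2 (chr15:32920723-33034935, plus strand), a heparan sulfate proteoglycan of the cell surface, had 40.5, 53.1 and 78.2 CPM in control, 6.40, 10.1 and 21.9 in Tim4+ and 0, 1.17 and 4.20 in Tim4- KCs. The 3 groups did not overlap, and Tim4- replicate 3 had no count. The mean was 21.1% of control in Tim4+ and 2.99% in Tim4- KCs. Log2 fold changes were -2.27 ± 0.47 (edgeR adjusted p = 0.00416) and -5.19 ± 0.57 (edgeR adjusted p = 9.40e-07), and -2.92 ± 0.54 between Tim4- and Tim4+ (edgeR adjusted p = 0.000961). The study lists Sdc2 among genes that differ between monocyte-derived and embryonic KCs, and relates Tim4 on KCs to their time in the tissue. The part of cell origin in the Sdc2 values was not tested. Of 7 tested syndecans, glypicans and related proteoglycans, 1 was called, the basement membrane proteoglycan Hspg2, lower in Tim4- KCs (-2.04 ± 0.35), and none was called in Tim4+ KCs.

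Pcolce2 (chr9:95637601-95698096, plus strand) encodes a secreted enhancer of procollagen C-terminal processing. It had 206, 226 and 275 CPM in control, 71.1, 116 and 135 in Tim4+ and 29.3, 35.03 and 48.3 in Tim4- KCs. It thus fell in 2 steps without any overlap between groups, to 48.0% and then 16.3% of control. The log2 fold changes were -1.08 ± 0.14 in Tim4+ (edgeR adjusted p = 4.38e-05), -2.63 ± 0.15 in Tim4- (edgeR adjusted p = 1.47e-10) and -1.56 ± 0.15 between them (edgeR adjusted p = 1.99e-06). Without Tim4+ replicate 3 the Tim4+ value was -0.97, under the fold limit. Among its relatives 3 were expressed enough to test, and the matrix protein Fn1 was lower in Tim4- KCs (-2.03 ± 0.70). The next protein-coding gene on one side is Paqr9, 69606 bases away, and on the other Trpc1, 9521 bases away, which was lower in Tim4- KCs (-3.01 ± 0.82, edgeR adjusted p = 0.00962) at no more than 1.65 CPM on average. Neighbouring genes were looked up after the members' values were seen.

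Among the transporters and channels, Slc1a2 (chr2:102658659-102790784, plus strand) encodes the glutamate carrier GLT-1. It had 56.1, 60.9 and 85.7 CPM in control, 6.41, 14.3 and 27.5 in Tim4+ and 7.19, 24.9 and 49.6 in Tim4- KCs. Both Zeb2-deleted populations were below every control and overlapped each other. Unlike the other called genes it was lower in Tim4+ (-2.14 ± 0.38, edgeR adjusted p = 0.000911) than in Tim4- KCs (-1.33 ± 0.37, edgeR adjusted p = 0.0118), but the difference between them, 0.81 ± 0.37, did not pass the test (edgeR adjusted p = 0.179), although Tim4- was higher in all 6 pairs with the same number. The second glutamate carrier, Slc1a3, fell in both (-1.36 in Tim4+, -2.49 in Tim4-) and further in Tim4- than in Tim4+ KCs (-1.13 ± 0.34, edgeR adjusted p = 0.0323). The neutral amino acid carrier Slc1a5 was higher in Tim4- KCs (1.53 ± 0.18), and no other of the 6 relatives tested was called against controls.

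Kcna2 (chr3:107101146-107115005, plus strand) encodes the voltage-gated potassium channel subunit Kv1.2. It had 76.5, 97.7 and 119.9 CPM in control, 68.7, 83.5 and 94.6 in Tim4+ and 31.97, 45.4 and 54.8 in Tim4- KCs. The fall was seen in Tim4- KCs, where no sample reached either other group (-1.20 ± 0.14, edgeR adjusted p = 3.33e-06). In Tim4+ KCs the log2 fold change was -0.26 ± 0.14 (edgeR adjusted p = 0.370), and the difference between both populations was -0.94 ± 0.14 (edgeR adjusted p = 0.000183), short of the fold limit except without Tim4- replicate 1 (-1.02). Of 4 channel relatives tested, 3 were higher in Tim4- KCs: Kcna3 (2.95 ± 1.02), the beta subunit Kcnab2 (1.04 ± 0.17) and the calcium-activated Kcnn4 (1.66 ± 0.53). Kcna3, which lies 52754 bases from Kcna2, showed the opposite tissue pattern, with means of 0.158 CPM in control KCs, 1.28 in Tim4- KCs and 180 CPM in control AMs.

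Adcy4 (chr14:55769057-55784095, minus strand), an adenylyl cyclase that makes cAMP, had 305, 332 and 397 CPM in control, 283, 320.4 and 344 in Tim4+ and 146, 294 and 379.5 in Tim4- KCs. All groups overlapped. Log2 fold changes were -0.13 ± 0.14 (edgeR adjusted p = 0.712) and -0.28 ± 0.14 (edgeR adjusted p = 0.165), and without Tim4- replicate 1, the shallowest library and the lowest value, the Tim4- change was -0.15 ± 0.09. Of 7 tested cyclases and partners, Adcy3 alone was called, lower in Tim4- KCs (-1.70 ± 0.24).

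Rcan1 (chr16:92391953-92470867, minus strand), an inhibitor of the phosphatase calcineurin, had 244, 386 and 448 CPM in control, 195, 212 and 325 in Tim4+ and 236, 286 and 404 in Tim4- KCs. All groups overlapped. The log2 fold change was -0.64 ± 0.16 in Tim4+ (edgeR adjusted p = 0.0176) and -0.26 ± 0.16 in Tim4- KCs (edgeR adjusted p = 0.260), and Tim4- exceeded Tim4+ in 6 of 6 same-numbered pairs with a log2 difference of 0.39 ± 0.16 (edgeR adjusted p = 0.134). With the replicate number as a block, which these pairs allow, the edgeR adjusted p was 0.0404, still under the fold limit. Among 9 calcineurin and NFAT genes tested, Nfatc2 was higher in Tim4- KCs (2.34 ± 0.51) and no other was called.

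Paqr9 (chr9:95559657-95568023, plus strand) belongs to the progestin and adipoQ receptor family. It had 231, 265 and 309 CPM in control, 165, 203 and 246 in Tim4+ and 117, 170 and 207 in Tim4- KCs. Tim4- samples were all below the controls, with 64.5% of their mean (-0.65 ± 0.12, edgeR adjusted p = 0.000530), which is less than the fold required. The Tim4+ value was -0.38 ± 0.12 (edgeR adjusted p = 0.0769). None of 8 tested members of its family was called in either population.

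Other known KC genes also split. Of 18 such genes, 3 were lower and 1 higher in Tim4+ KCs, beside 0.376% and 1.94% of all genes. The largest changes were those of the haemoglobin scavenger receptor Cd163 (-2.44), the scavenger receptor Marco (1.39) and Clec4f (-1.23). In Tim4- KCs 8 were lower and 2 higher, beside 5.39% and 3.43% of all genes. The largest changes there were those of Timd4 (-8.22), the gene sorted on, Cd163 (-4.60) and the complement component C6 (-2.43). The study lists Cd163, Marco, Timd4 and C6, like Sdc2, among genes that differ between monocyte-derived and embryonic KCs. None of 12 LXR target genes was called in a KC comparison, with medians of -0.03 in Tim4+ and -0.07 in Tim4- KCs. Of all genes 2.31% were called in Tim4+ KCs, 8.82% in Tim4- KCs and 5.45% between them. At these shares, the absence of calls among 12 genes says little about LXR targets. Nr1h3, which encodes LXRα, was not called in the KC comparisons either, whereas the study reports its loss in KCs lacking Zeb2. In KCs minus AMs, the deletion effect was called lower for Nr1h3 and for Abca1, Scd1 and Apoe of the 12 targets. Of all 13294 genes 4.65% were called lower there. Abca1, Scd1 and Apoe were called higher in CD11b- AMs against controls. The sorted populations can include cells that kept 1 functional Zeb2 allele. Over the 18 KC samples, the gene most like Pcolce2 in log2 CPM was Pmp22 (Pearson r = 0.973), and the one most like Icos was Ccdc148 (0.968). The closest to Cdh5 was Pitpnc1 (0.963), to Kcna2 Raver2 (0.953), to Sdc2 Dcbld1 (0.935), to Adcy4 Dock8 (0.933), to Slc1a2 Apba1 (0.930), to Paqr9 Slc16a9 (0.913) and to Rcan1 Scimp (0.843). These samples share the group differences, so the correlations describe the same falls. Among the members, Vsig4 and Pcolce2 had r = 0.934 and Cdh5 and Pcolce2 r = 0.925, whereas Vsig4 and Rcan1 had r = 0.0235.

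In AMs, Adcy4 was higher in the CD11b+ population, Slc1a2 was higher there at a level of few reads, Rcan1 was present in all 3 groups, and the other 7 genes were near 0 in most samples. Of the 10 genes only Adcy4, Slc1a2 and Rcan1 passed the filter on low counts, and a gene that passes it through 1 high group must differ, so the count is no support by itself. In CD11b+ AMs Adcy4 and Slc1a2 were called higher against controls, beside 9.57% of 11573 genes higher, 5.68% lower and 15.3% in either direction. Both were also called higher in CD11b+ than in CD11b- AMs, beside 6.85% higher, 3.3% lower and 10.2% in either direction. None of the 3 was called in CD11b- AMs, beside 3.98% higher, 2.51% lower and 6.5% in either direction. On the adjusted p alone, 2 passed in CD11b- AMs, 3 in CD11b+ AMs and 2 between them, beside 25.7%, 43.2% and 36.4% of all genes. The median log2 fold change of the 3 was 3.83 in CD11b+ AMs and 0.76 in CD11b- AMs, beside -0.00516 and 0.00269 over all genes. Both populations share the control samples.

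Adcy4 had 4.62, 7.39, 8.09, 9.48 and 5.57 CPM in control AMs, 13.3, 6.05, 11.1, 15.3 and 14.3 in CD11b- AMs, and 100.5, 88.9, 76.4, 121.6 and 118 in CD11b+ AMs. Every CD11b+ sample was above every other AM sample and below every control KC sample. The rise was 3.83 ± 0.23 on the log2 scale against controls (edgeR adjusted p = 4.61e-11) and 3.07 ± 0.22 against CD11b- AMs (edgeR adjusted p = 2.59e-09). In CD11b- AMs the change was 0.76 ± 0.22 (edgeR adjusted p = 0.0155), under the fold limit. The mean in CD11b+ AMs was 21.6 RPKM, against 73.1 in control KCs. Adcy4 lies 900 bases from Ripk3, a kinase of necroptosis on the same strand, and Ripk3 rose in CD11b+ AMs too, from a mean of 14.2 to 79.8 CPM (2.48 ± 0.21, edgeR adjusted p = 9.31e-09). In Tim4- KCs Ripk3 had a log2 fold change of 0.72 ± 0.12 and Adcy4 of -0.28. The neighbour on the other side, the leukotriene receptor Ltb4r1, was higher in CD11b+ AMs (3.69 ± 0.81) from 0.237 to 3.16 CPM, and in Tim4- KCs (2.57 ± 0.43).

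**Figure D4:**
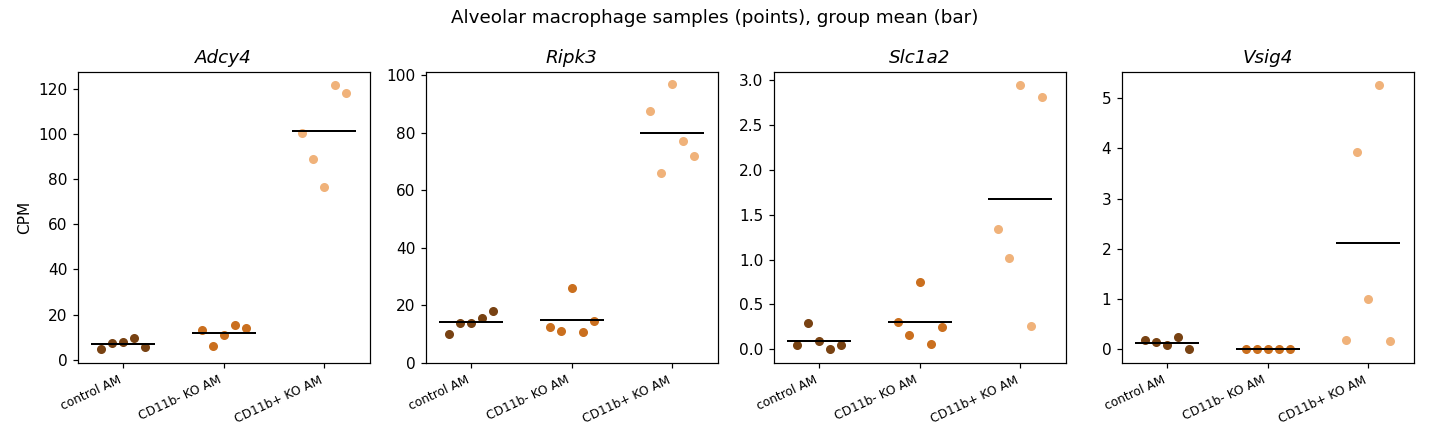
CPM of Adcy4, its neighbour Ripk3, Slc1a2 and Vsig4 in the 15 AM samples, with a bar for each group mean and a separate axis per panel. Adcy4 and Ripk3 were high in all 5 CD11b+ samples, while Slc1a2 and Vsig4 stayed under 6 CPM and varied between samples.

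Slc1a2 had 1, 6, 2, 0 and 1 counts in control AMs, 6, 4, 16, 1 and 5 in CD11b- AMs and 22, 20, 56, 5 and 48 in CD11b+ AMs. The groups overlapped, and the CD11b+ mean was 1.67 CPM against 64.99 in control KCs. The test gave 4.02 ± 0.86 against controls (edgeR adjusted p = 0.000762) and 2.41 ± 0.77 against CD11b- AMs (edgeR adjusted p = 0.0188), the latter lost without CD11b+ replicate 3 (adjusted p = 0.0587) or 5 (adjusted p = 0.0553). Rcan1 moved down: it had 59.2, 61.6, 52.9, 66.6 and 66.5 CPM in control AMs, 44.6, 51.1, 45.4, 43.9 and 52.1 in CD11b- and 50.8, 41.5, 42.7, 52.2 and 40.8 in CD11b+ AMs. All samples of both populations were below the controls, at -0.37 ± 0.09 (edgeR adjusted p = 0.00576) and -0.44 ± 0.09 (edgeR adjusted p = 0.000672), under the fold limit.

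Of the genes under the filter, Vsig4 had 4, 3, 2, 5 and 0 counts in control AMs, 0 in all 5 CD11b- samples, and 3, 77, 19, 99 and 3 in CD11b+ AMs. The 3 higher CD11b+ samples reached 0.997 to 5.26 CPM, against 2806 or more in control KCs. Paqr9 had 0 counts in all control AMs and 3, 0, 0, 3 and 30 in CD11b+ AMs. Cdh5 (at most 27 counts), Icos (at most 22), Pcolce2 (at most 13), Sdc2 (at most 8) and Kcna2 (at most 1) were low in all 15 AM samples. Of 18 other KC genes, 15 passed the filter in AMs. In CD11b+ AMs 11 of these were higher and none lower, beside 9.57% of all genes higher. The largest changes were those of Timd4 (6.99), the folate receptor Folr2 (6.71) and Cd163 (5.83). In CD11b- AMs 4 of the 15 were higher (Marco, Id3, Itga9 and Apoc1) and none lower, beside 3.98% of all genes higher. A gene near 0 in controls passes that filter only through a group where it is high. These counts, and those of the monocyte and neutrophil markers that follow, are therefore no support by themselves. Monocyte and neutrophil markers summed highest in the CD11b+ population. There 6 of 6 tested monocyte markers and 5 of 5 neutrophil markers were higher than in controls. Their sums were 90.9 to 295 and 681 to 950 CPM, against 6.03 to 12.6 and 48.4 to 72.03 CPM in controls. In CD11b- AMs 1 of the 6 (Ccr2) and 3 of the 5 (Mmp8, Cxcr2 and Ltf) were higher and none lower. The sums in CD11b- AMs were 12.6 to 25.5 and 290 to 460.5 CPM. The sum of the 12 endothelial markers was 5.87 to 8.78 CPM in control and 10.6 to 17.9 CPM in CD11b+ AMs. The part of these markers in the Adcy4 and Slc1a2 values was not tested.

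Whether Zeb2 deletion acted differently on these genes in the 2 tissues was tested for the 3 genes that passed the filter in AMs, with the mean of both Zeb2-deleted populations in each tissue. Slc1a2 passed that filter mainly through its CD11b+ reads, and the KC side uses the control KCs that chose the genes, so the number of genes called is given as a description. The effect in KCs minus that in AMs was -2.50 ± 0.24 for Adcy4 (edgeR adjusted p = 1.41e-09) and -4.55 ± 0.89 for Slc1a2 (edgeR adjusted p = 0.000235), which put 2 of the 3 past the limits, beside 4.65% of 13294 genes called lower, 3.5% higher and 8.15% in either direction (19.5% on the adjusted p alone). For Rcan1 it was -0.04 ± 0.18 (edgeR adjusted p = 0.963). Tissue and Cre line cannot be told apart in this difference.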

How the data were processed

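RNA of 33 samples was compared. The authors trimmed reads with Trimmomatic 0.35 (quality under 20, length under 35 discarded), mapped them with TopHat2 2.1.0 to mm10, and counted them per gene symbol with HTSeq-count. The deposited files hold raw counts of 24421 genes. Another 5 rows tally unassigned reads and entered no test. The annotation and strand setting are not given in the sources used here. Whether samples come from separate mice is not stated, so p-values measure the spread between these samples.

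CPM used TMM factors over all samples, and RPKM used GENCODE M21 exon lengths. KC and AM samples were fitted apart with edgeR 4.0.16 (R 4.3.3) after its filter on low counts, by the quasi-likelihood test with Benjamini-Hochberg adjustment over all genes tested. The difference between tissues was fitted on all 33 samples. Standard errors are the log2 fold change divided by the square root of F. Scripts were tested on simulated data. limma 3.58.1 (voom) and DESeq2 1.42.0 were alternatives, besides RLE factors, other filters, no fold limit, other sample sets, Ddx3y as a covariate for sex, a replicate block and leaving out each sample. The floor was 3 counts and covers counting error only.

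The members, and the lists of related and marker genes, were chosen with earlier results of these data known. All members are named. From each list every called gene is named where a comparison calls at most 3, and otherwise the 3 largest changes. The 3 genes most like each member were ranked by Pearson r of log2 CPM (prior count 0.5) in KCs, and the first is named, except for Vsig4. A related gene is not reported here. Same-numbered Tim4- and Tim4+ samples deviated together (r 0.112 to 0.251 in 6 of 6 pairs), so those numbers pair the samples. The labels do not say what the number stands for.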

Additional observations from a re-analysis of the deposited data

Results flagged for a closer look

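The tested difference between the Zeb2 deletion effects in the 2 tissues passed the limits for Adcy4 and Slc1a2, in a test that uses the control KCs from which the genes were chosen. The log2 value in KCs minus that in AMs was -2.50 for Adcy4 and -4.55 for Slc1a2. Adcy4 was high in all 5 CD11b+ AM samples and near control in KCs, while Slc1a2 fell in KCs and rose from near 0 in AMs. Slc1a2 entered the AM comparison mainly through its CD11b+ reads, so its value is no independent support, and the call was lost with limma-voom (adjusted p = 0.0567).

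In 57 sets of samples of 1 group with any spread, 6 had a sample far from the others, where chance gives about 1 in 20 for values without ties. All 6 were genes near 0 in AMs, and in 5 of them a single sample had any count, which meets the criterion by construction, so that rate does not apply to them. Paqr9 stood at 1.75 CPM (30 counts) in CD11b+ replicate 5, against 0.183 CPM or less in the other CD11b+ samples. Pcolce2 stood at 0.319 CPM (6 counts) in CD11b+ replicate 4, with 0 in the others. Sdc2 stood at 0.327 CPM (8 counts) in CD11b- replicate 2 and at 0.256 CPM (5 counts) in CD11b+ replicate 2, with 0 in the others. Kcna2 had 1 count in CD11b- replicate 3 (0.0468 CPM) and in CD11b+ replicate 4 (0.0531 CPM).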

How the results depend on the processing

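Counts of called members were 3 (Tim4+), 6 (Tim4-), 2 (Tim4- against Tim4+), 0 (CD11b-), 2 (CD11b+), 2 (CD11b+ against CD11b-) and 2 (between tissues). Without a fold limit the first 3 comparisons gave 6, 8 and 6 (beside 6.09%, 25.4% and 11.5% of all genes) and CD11b- AMs 2 (25.7%). Requiring 10 counts in every sample gave 1 for Tim4- against Tim4+, CD11b+ against control, CD11b+ against CD11b- and the tissue difference, by construction, since Sdc2 or Slc1a2 is then not tested, and for the same reason 2 for Tim4+ and 5 for Tim4- KCs against control. Without a filter, CD11b- AMs had 1 (Vsig4, lower, -4.47) and CD11b+ AMs 4 (Vsig4 3.92 and Paqr9 6.07 added, where a fitted value against a group at 0 depends on the prior count), and the fit of all 33 samples also gave 4. With only the 2 groups compared CD11b+ had 1, since Slc1a2 was not tested. limma-voom gave 1 for the tissue difference.

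Leaving out 1 sample gave 2 to 3, 5 to 7, 2 to 3, 0, 2, 1 to 2 and 2 members called, in the order above. The single count under CD11b+ against CD11b- was 1 without CD11b+ replicate 3 or 5. The tissue difference of Rcan1, which was not called, changed sign without control AM replicate 3 (0.0132), control KC replicate 1 (0.0160) or control KC replicate 3 (0.0314), and ranged down to -0.1302 without control KC replicate 6. The replicate block gave 3, 6, 2, 0, 2, 2 and 2 members and changed no call, although the adjusted p of Rcan1 between Tim4- and Tim4+ KCs then passed 0.05 (0.0404). Same-numbered samples deviated together most between Tim4- and Tim4+ KCs (mean r 0.184). In AMs the correlations were weaker. Each of the 5 CD11b+ samples was still closest to its own number among CD11b- AMs (r 0.0517 to 0.0989) and among control AMs (0.0377 to 0.0872). Against control KCs, 2 of 6 samples of each Zeb2-deleted population were closest to their own number. Against control AMs, this held for 0 of 5 CD11b- samples. In the tissue fit the block joined liver and lung samples of the same number. For these comparisons a pairing by number is not shown, so the block is a weak check there. RLE factors and DESeq2, and in KCs Ddx3y as a covariate, changed no count of members. CPM without TMM factors moved none of 60 group means by more than 1 SD. It left all 10 genes higher in every control KC than in every control AM. Their choice by a high level in control KCs favours that order in advance, so it is no result of a test. Genes under 3 counts in a library are not detectable at this depth.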
